A study of Homo sapiens with 6 samples.

Results

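The ATF4 and CHOP transcription factor core is described here through 9 genes: ATF4, ATF3, ATF5, DDIT3 (which encodes CHOP), CEBPB, CEBPG, NUPR1, CHAC1 and PPP1R15A. They were taken by name from the array annotation, all 9 were measured, and they are 9 of the 18417 genes with a probe set that carries a single gene symbol. Each gene was read on 1 probe set, the one with the highest mean where several carried its symbol. The arrays profiled MDA-MB-231 cells, a human line of mesenchymal character grown from a triple-negative breast cancer, in 3 independent control samples and 3 independent samples treated with EC-70124 at 500 nM for 24 h. EC-70124 is a hybrid indolocarbazole that inhibits several kinases. The sources used here do not give the vehicle or the handling time of the control cells. The comparison asked which transcripts changed in these cells after treatment with the compound, so it concerns 1 cell line, 1 dose and 1 time. Values are the deposited model-based expression indices, a linear hybridisation intensity summarised over the probes of a probe set. Fold changes are differences of mean log2 intensity, EC-70124 minus control, with the standard error (SE) of the fit across all genes.

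ATF4 is the main transcription factor of the integrated stress response. Stress kinases phosphorylate the initiation factor eIF2alpha, which lowers general protein synthesis while ATF4 mRNA, held back by short upstream reading frames, becomes better translated. ATF4 then pairs with other basic leucine zipper (bZIP) proteins, among them the C/EBP family and CHOP, and drives genes of amino acid supply, redox balance and, when stress persists, cell death. Much of ATF4's control is exerted on translation, which these arrays do not measure.

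All 9 genes read higher with EC-70124 than in the control cells on the probe sets used. Every treated array lay above every control array for 9 of 9, and the same was seen in 25.6% of all genes tested. For ATF4 this rests on a probe set that had the higher mean only through the treated arrays. Its other probe set was lower without overlap (log2 fold change -0.27). The log2 fold change ran from 0.43 for ATF5 to 2.95 for CHAC1 with a median of 1.63, beside a median of -0.00448 over all genes, and 6 of the 9 exceeded 2-fold. CHAC1, NUPR1, DDIT3, ATF3 and PPP1R15A were among the 100 genes with the highest fold changes, while ATF4 and ATF5 stood at ranks 1780 and 1940 of 18417. The 9 genes were selected on their fold changes in this same contrast, known from earlier work on these arrays, so these values are a description and no p-value is given for any of them. The RNA was bulk, and fewer responding cells cannot be told apart from a smaller response in each cell.

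**Figure D1:**
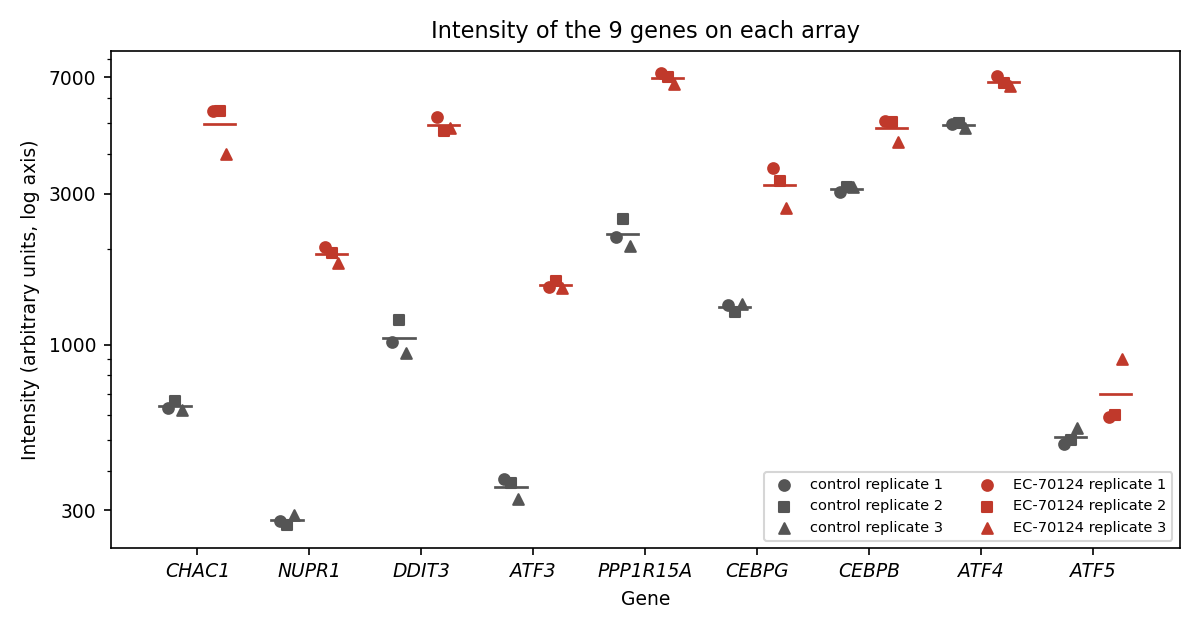
Deposited expression index (linear intensity drawn on a log axis) of the 9 genes in each of the 3 control and 3 EC-70124 arrays; points are single arrays and short bars are group means. The 3 treated arrays lie above the 3 control arrays for each gene, widely for CHAC1 (632, 662 and 624 against 5480, 5472 and 4012) and by a small gap for ATF5 (485, 499 and 546 against 592, 599 and 904).

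DNA letters that bZIP factors are known to bind were looked for in the promoters, to show which of the 9 genes carry one close to a transcription start. RefSeq promoter windows on GRCh38.p14, reaching from 250 bases before to 50 bases after a start, matched 8 of the 9 genes with 15 windows, and NUPR1 was not matched. The C/EBP-ATF composite letters TGATGNAA, read on both strands, were present in 3.62% of all 35116 windows and in windows of ATF3, CEBPG and CHAC1. The following stretches hold those letters in capitals with up to 30 bases on each side. They lie at chr1:212565186-212565253 on the plus strand for ATF3, chr19:33374041-33374108 on the plus strand for CEBPG, and chr15:40953232-40953299 on the plus strand for CHAC1, where the letters are read on the other strand.
ATF3: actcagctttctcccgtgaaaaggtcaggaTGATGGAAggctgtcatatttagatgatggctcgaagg
CEBPG: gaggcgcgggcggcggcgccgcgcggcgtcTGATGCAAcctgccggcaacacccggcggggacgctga
CHAC1: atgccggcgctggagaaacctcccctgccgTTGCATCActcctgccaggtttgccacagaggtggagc
Counted from the annotated start of the window, the motif lay at position -191 in ATF3, -42 in CEBPG and -209 in CHAC1. ATF3 and CEBPG each had 2 windows, and the letters were in 1 of them. With the stricter letters TGATGCAA, found in 0.866% of all windows, CEBPG and CHAC1 remained.

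PPP1R15A held the cAMP response element TGACGTCA, which was present in 1.85% of all windows, and a C/EBP site of the form TTGCNNAA, which was present in 10.5%. DDIT3 held the AP-1 letters TGANTCA, which were present in 7.71% of all windows. These stretches lie at chr19:48872333-48872400 and chr19:48872244-48872311 on the plus strand for PPP1R15A and at chr12:57520719-57520764 on the minus strand for DDIT3, and the capitals mark the motif.
PPP1R15A, cAMP response element: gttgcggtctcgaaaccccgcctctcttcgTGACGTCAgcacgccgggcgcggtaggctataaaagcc
PPP1R15A, C/EBP site: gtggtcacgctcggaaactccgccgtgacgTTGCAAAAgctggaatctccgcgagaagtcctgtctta
DDIT3, AP-1 site: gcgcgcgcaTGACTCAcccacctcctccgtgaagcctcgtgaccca
The C/EBP site was also in windows of ATF3 and ATF5, and the AP-1 letters in windows of ATF5. No match overlapped a match of another motif, and none of these letters was in the windows of ATF4 or CEBPB. A match describes the letters in the window and is not evidence of binding.

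**Figure D2:**
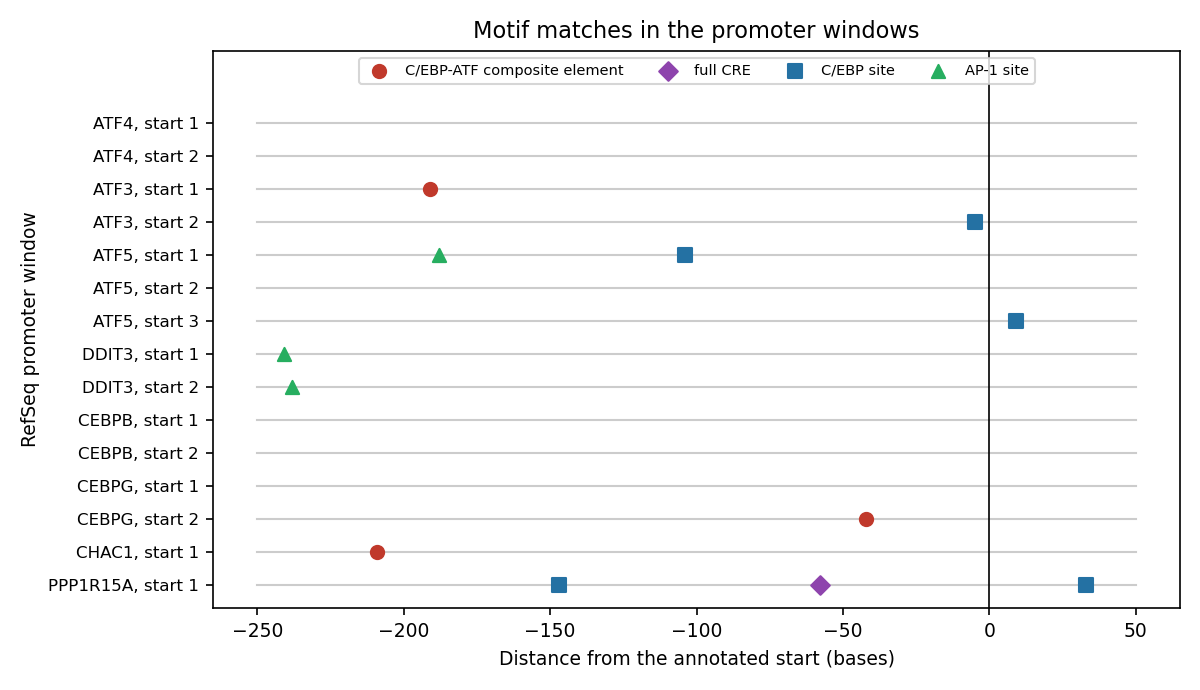
Positions of the 4 motifs in the 15 RefSeq promoter windows of 8 of the genes, drawn as distance in bases from the annotated start, 250 before to 50 after; each line is 1 window and each mark 1 match on either strand. The composite C/EBP-ATF letters appear in windows of ATF3, CEBPG and CHAC1, and the ATF4 and CEBPB windows are empty.

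ATF4 itself changed little in level. Its probe set read 4974, 5025 and 4845 in the control arrays (4948 ± 92.4, SD, n = 3) and 7083, 6705 and 6559 with EC-70124 (6783 ± 270.2, SD, n = 3). The lowest treated array was above the highest control array, and the log2 fold change was 0.45 (SE 0.06), or 1.37-fold. Over all genes, 9.66% had a higher fold change.

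A second probe set named for ATF4 went the other way. It read 4492, 5501 and 4985 in the control arrays (4993 ± 505, SD, n = 3) and 4236, 4428 and 3752 with EC-70124 (4139 ± 348, SD, n = 3), a log2 fold change of -0.27. Here the treated arrays lay below the control arrays, by a gap of only 0.02 on the log2 scale between the nearest arrays. The annotation assigns different RefSeq transcripts of the gene to the 2 probe sets. The used probe set had the higher mean over the 6 arrays only through the treated arrays. In the control arrays its mean was the lower of the 2 (4948 against 4993). The rule that picked it was therefore not independent of the treatment. With the second probe set in place of the used one, 8 of the 9 genes were higher without overlap, and with the median over probe sets the ATF4 log2 fold change was 0.09. Opposite, non-overlapping probe sets were found in 16 of the 272 genes that had at least 2 probe sets without overlap (5.88%). The RefSeq gene table lists 4 pseudogenes named ATF4P1 to ATF4P4 and none named for the other 8 genes. Whether the probes also bind their sequence was not tested. The direction of the ATF4 transcript therefore depends on which probe set is read.

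**Figure D3:**
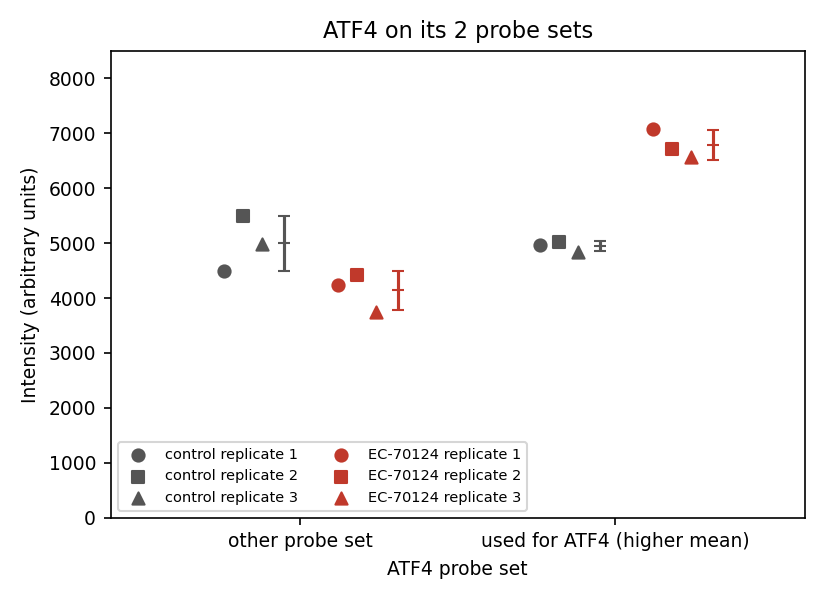
Linear intensity of the 2 probe sets named for ATF4 in each of the 3 control and 3 EC-70124 arrays, with the mean and SD of each group beside its points; levels of different probe sets are not comparable with each other. The probe set used for ATF4 has a log2 fold change of 0.45 and the other probe set one of -0.27.

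ATF5 and ATF3 are bZIP factors of the ATF family, both known targets of ATF4. ATF5 acts in the mitochondrial stress response, and like ATF4 it is controlled through upstream reading frames. Its probe set read 485, 499 and 546 in the control arrays (509.9 ± 31.9, SD, n = 3) and 592, 599 and 904 with EC-70124 (698 ± 178, SD, n = 3). The groups were separated by 0.12 on the log2 scale, and treated replicate 3 stood well above the other treated arrays, by 0.60. The log2 fold change was 0.43 (SE 0.15) and fell to 0.23 without treated replicate 3.

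ATF3, which forms homodimers that repress and heterodimers that can activate stress genes, moved far more. Its values were 377, 365 and 326 in the control arrays (356 ± 26.5, SD, n = 3) and 1524, 1595 and 1514 with EC-70124 (1544 ± 44.2, SD, n = 3). All 3 treated arrays lay close together and far above the control arrays, with a log2 fold change of 2.12 (SE 0.07), or 4.35-fold.

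DDIT3 encodes CHOP, a C/EBP relative that forms heterodimers with other C/EBP proteins and is known for its part in cell death after prolonged stress. It read 1020, 1193 and 942 in the control arrays (1052 ± 129, SD, n = 3) and 5226, 4741 and 4827 with EC-70124 (4931 ± 259, SD, n = 3). The groups did not overlap and the log2 fold change was 2.24 (SE 0.09), or 4.71-fold, rank 22 of all genes.

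CEBPG and CEBPB are the C/EBP partners of ATF4 and CHOP. CEBPG lacks an activation domain of its own and pairs with ATF4 at composite elements. It read 1334, 1267 and 1348 in the control arrays (1316 ± 43.3, SD, n = 3) and 3605, 3285 and 2708 with EC-70124 (3200 ± 454, SD, n = 3). The log2 fold change was 1.27 (SE 0.10), and treated replicate 3 was the lowest treated array, 0.35 below the mean of the other treated arrays on the log2 scale. CEBPB, an activator with shorter repressive isoforms, read 3034, 3146 and 3147 in the control arrays (3109 ± 64.9, SD, n = 3) and 5075, 5047 and 4367 with EC-70124 (4830 ± 401, SD, n = 3). Its groups were also apart, but the log2 fold change of 0.63 (SE 0.07) was smaller, and 5.70% of all genes exceeded it. The arrays do not separate the protein isoforms of CEBPB.

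NUPR1 is a small stress-induced chromatin protein. It read 278, 269 and 290 in the control arrays (279 ± 10.1, SD, n = 3) and 2035, 1955 and 1809 with EC-70124 (1933 ± 114, SD, n = 3). Both groups were tight and far apart, and the log2 fold change of 2.79 (SE 0.06), or 6.92-fold, placed NUPR1 at rank 10 of all genes.

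CHAC1 and PPP1R15A act downstream of the factors. CHAC1 breaks down glutathione and is a known target of ATF4 and ATF3. It read 632, 662 and 624 in the control arrays (639 ± 19.8, SD, n = 3) and 5480, 5472 and 4012 with EC-70124 (4988 ± 845, SD, n = 3). The treated arrays were spread more widely than the control arrays, with log2 SDs of 0.26 and 0.04, and replicate 3 was 0.45 below the other treated arrays on the log2 scale. Even so the log2 fold change was 2.95 (SE 0.12), or 7.72-fold, the largest of the 9 and rank 6 of all genes. PPP1R15A encodes GADD34, which brings protein phosphatase 1 to eIF2alpha and so closes the feedback loop. It read 2187, 2489 and 2058 in the control arrays (2245 ± 221, SD, n = 3) and 7200, 7013 and 6643 with EC-70124 (6952 ± 283, SD, n = 3), a log2 fold change of 1.63 (SE 0.08).

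Treated replicate 3 was the lowest treated array in 7 of the 9 genes and the highest in ATF5. Over all genes it was the lowest treated array in 42.1%, and its median difference from the other treated arrays was -0.01 on the log2 scale. Without it the 9 genes were still higher without overlap.

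**Figure D4:**
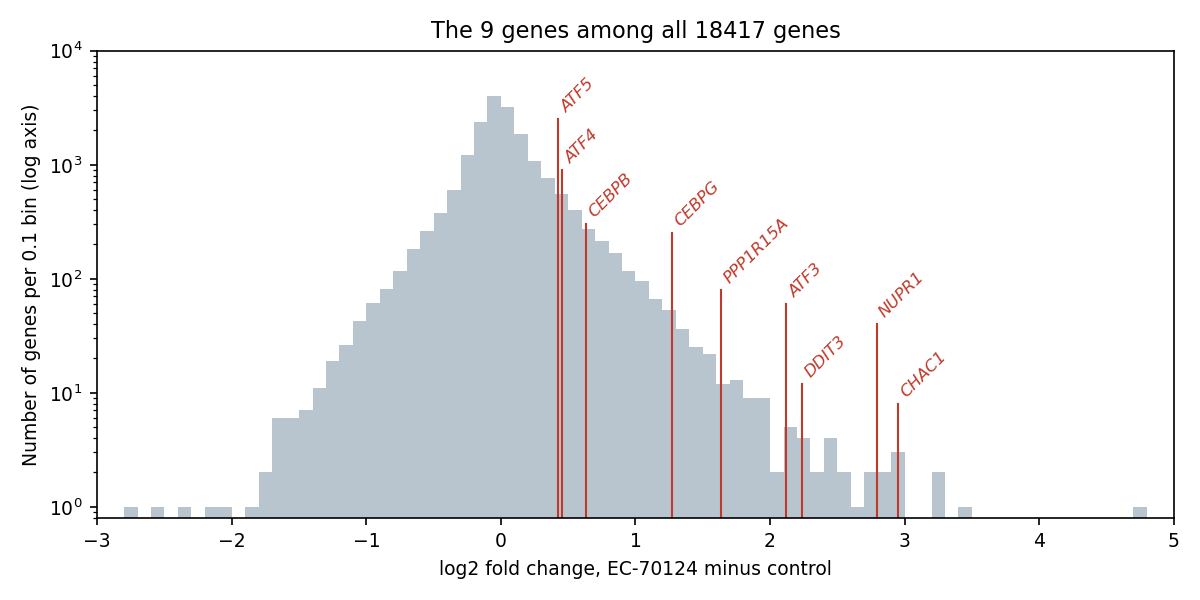
Distribution of the log2 fold change (EC-70124 minus control) over all 18417 genes, with the 9 genes marked at their values. CHAC1, NUPR1, DDIT3 and ATF3 lie above 2 on the log2 scale, while CEBPB, ATF4 and ATF5 lie between 0.43 and 0.63 on the shoulder of the distribution.

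The other genes of the pathway were read from lists by role and tested with limma over all 18417 genes at a Benjamini-Hochberg adjusted p of 0.05. The lists follow known pathway roles but were drawn up with earlier results of these data known. Their counts below are therefore a description and not an independent result. At that threshold 19.7% of all genes were called higher (3632) and 14.8% lower (2722), or 34.5% in either direction. After quantile normalization the split was 3113 higher and 3528 lower. The calls on EIF2AK3, DELE1, JDP2, NFIL3, ATF7, NFE2L2, BTRC, FBXW11, KLHL24, VLDLR, SEC24D, HYOU1, HERPUD1 and UFM1 were lost when a variance was estimated for each group. The p-values weigh each difference against the spread between these samples, moderated over all genes, and not against variation between experiments.

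Upstream of ATF4, 11 genes around eIF2alpha rose and 3 of its 4 kinases fell. Of 25 measured genes of the eIF2alpha arm, 11 were called higher (44%), 3 lower (12%) and 11 neither, and their median log2 fold change was 0.17. Over all genes, 19.7% were called higher and 14.8% lower. The count of higher genes in this arm was 8 after quantile normalization, cyclic loess or median centring. The 3 called lower encode eIF2alpha kinases, but under 6 of the alternative settings, and without treated replicate 3, 5 genes were lower. The added genes were GCN1, an activator of GCN2, and DNAJC3, an inhibitor of eIF2alpha kinases, with log2 fold changes of -0.20 and -0.24 (limma adjusted p = 0.0613 and 0.0508). EIF2AK3, the endoplasmic reticulum kinase PERK, read 1238, 1264 and 1221 in the control arrays and 779, 898 and 906 with EC-70124, a log2 fold change of -0.53 (SE 0.07, limma adjusted p = 0.000644). EIF2AK4, the amino acid sensor GCN2, fell by 0.29 on the log2 scale (limma adjusted p = 0.00489). EIF2AK1, the haem-regulated kinase, fell by 0.25 (limma adjusted p = 0.00844). The double-stranded RNA kinase EIF2AK2 had a log2 fold change of 0.01 (limma adjusted p = 0.871), which turned below 0 after other scalings.

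Among the genes of this arm that rose, the largest change was in DENR, a reinitiation factor, from 1862 ± 58.4 to 2861 ± 168 (SD, n = 3 each; log2 fold change 0.62, limma adjusted p = 0.000158). EIF2B1, a subunit of the exchange factor of eIF2, rose by 0.50 on the log2 scale (limma adjusted p = 0.00084). EIF2S2, the beta subunit of eIF2, rose by 0.40 (limma adjusted p = 0.00109). PPP1R15B, the constitutive counterpart of GADD34, rose by 0.36 (limma adjusted p = 0.000955), against 1.63 for PPP1R15A, for which no test is given. DELE1, which relays mitochondrial stress to the haem-regulated kinase, rose by 0.35 (limma adjusted p = 0.0104).

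Calls in the wider bZIP family lay near the share in all genes. Of 25 measured relatives outside the 9 genes, 7 were called higher (28%, beside 19.7% of all genes), 3 lower (12%, beside 14.8%) and 15 neither, with a median log2 fold change of 0.04. The C/EBP genes CEBPA, CEBPD and CEBPE were not called by limma. CEBPD read 1845, 1800 and 1710 in the control arrays and 1846, 1829 and 1449 with EC-70124 (log2 fold change -0.07, limma adjusted p = 0.628). CEBPA had a log2 fold change of 0.06 (limma adjusted p = 0.600) and CEBPE one of -0.00068 (limma adjusted p = 0.997). The direction of these changes turned in some alternatives.

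XBP1, the factor of the IRE1 arm of the unfolded protein response, rose from 4509, 4126 and 4023 to 6578, 7332 and 6158, a log2 fold change of 0.66 (SE 0.08, limma adjusted p = 0.000383). Its spliced and unspliced forms were not separated here. CREB5 rose by 0.77 on the log2 scale (limma adjusted p = 0.000312), and the membrane-bound factor CREB3 by 0.59 (limma adjusted p = 0.000129). NFIL3, a repressor of the circadian and cytokine programmes, also rose by 0.59 (limma adjusted p = 0.00486), and JDP2, a relative of ATF3, by 0.46 (limma adjusted p = 0.0015).

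CREB3L2, another membrane-bound factor of the secretory pathway, showed the clearest fall in the family. It read 4720, 4774 and 4741 in the control arrays and 2408, 2427 and 2351 with EC-70124, a log2 fold change of -0.99 (SE 0.05, limma adjusted p = 8.1e-06). CREB3L1 fell by 0.42 (limma adjusted p = 0.000501) and ATF7 by 0.23 (limma adjusted p = 0.0266), a call that was lost without control replicate 1 or 2 or treated replicate 1 or 2.

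Partners and regulators of the stability of ATF4 and CHOP were divided, with 6 of 17 measured called higher (35.3%), 5 lower (29.4%) and 6 neither. The shares in all genes were 19.7% and 14.8%. The tribbles pseudokinases split within their own family. TRIB3, a target of ATF4 and CHOP that binds ATF4 and dampens it, rose from 781, 845 and 818 to 2623, 2610 and 2071, a log2 fold change of 1.57 (SE 0.10, limma adjusted p = 1.6e-05). TRIB2 fell from 941, 1042 and 901 to 465, 465 and 461, a log2 fold change of -1.05 (SE 0.07, limma adjusted p = 1.8e-05). TRIB1, which like TRIB2 directs C/EBP alpha to degradation, fell from 2026, 2142 and 1912 to 1214, 1218 and 1166 (log2 fold change -0.76, limma adjusted p = 5.4e-05).

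The acetyltransferase genes CREBBP and EP300 rose by 0.65 and 0.44 on the log2 scale (limma adjusted p = 0.000105 and 0.000909). TDG, a DNA glycosylase, rose by 0.62 (limma adjusted p = 0.000211), and NFE2L2, the antioxidant factor NRF2, by 0.59 (limma adjusted p = 0.000484). Genes linked to the degradation of ATF4 or CHOP went in both directions. BTRC and FBXW11, which encode the beta-TrCP recognition subunits, fell by 0.48 and 0.29 (limma adjusted p = 0.000986 and 0.00575), and EGLN3, a prolyl hydroxylase, fell by 0.49 (limma adjusted p = 0.00189). SPOP, a ubiquitin ligase adaptor for CHOP, rose by 0.27 (limma adjusted p = 0.0092), while EGLN1, another prolyl hydroxylase, had a log2 fold change of 0.13 and was not called (limma adjusted p = 0.16).

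Known targets of ATF4 and CHOP were largely higher. Of 53 measured targets outside the 9 genes, 33 were called higher (62.3%, beside 19.7% of all genes), 8 lower (15.1%, beside 14.8%) and 12 neither, with a median log2 fold change of 0.34. With a variance estimated for each group, 23 targets were called higher and 6 lower, beside 1963 and 1280 of all genes. STC2, a secreted glycoprotein induced by stress, rose from 106, 139 and 129 to 911, 891 and 886, a log2 fold change of 2.86 (SE 0.10, limma adjusted p = 2.6e-06). GDF15, a stress cytokine, rose from 828, 822 and 719 to 4225, 4003 and 2576, with treated replicate 3 lowest (log2 fold change 2.16, limma adjusted p = 5.4e-05). SESN2, a leucine sensor that restrains mTORC1, rose by 1.92 on the log2 scale, here with treated replicate 3 highest at 2579 against 1879 and 1948 (limma adjusted p = 2.0e-05).

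The amino acid genes of the list included ASNS, asparagine synthetase, which rose from 1777, 1874 and 1861 to 6610, 6125 and 5706 (log2 fold change 1.74, limma adjusted p = 3.8e-06). CTH, the cystathionine gamma-lyase that makes cysteine, rose from 1503, 1556 and 1586 to 4803, 4733 and 4148 (log2 fold change 1.56, limma adjusted p = 5.9e-06).

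Amino acid genes were not all higher. ALDH18A1, which starts proline synthesis, was among the 8 targets called lower and read 4325, 4204 and 4116 in the control arrays and 2857, 2887 and 3038 with EC-70124 (log2 fold change -0.53, limma adjusted p = 0.00018). PYCR1, of the same pathway, and the amino acid transporter SLC38A2 had log2 fold changes of -0.13 and -0.15 and were not called (limma adjusted p = 0.0889 and 0.0817).

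The 5 targets with the largest falls have varied functions. KLHL24, an adaptor of a ubiquitin ligase, read 1316, 1269 and 1115 in the control arrays and 635, 642 and 375 with EC-70124, a log2 fold change of -1.20 (SE 0.19, limma adjusted p = 0.00179). NDRG1, also known as a hypoxia gene, fell by 1.20 on the log2 scale (limma adjusted p = 5.7e-05). WIPI1, an autophagy gene, fell by 1.02 (limma adjusted p = 9.1e-06). FBXO32, the ubiquitin ligase subunit atrogin-1 and a known FOXO target, fell by 0.95 (limma adjusted p = 4.3e-05). VLDLR, a lipoprotein receptor, fell by 0.90 (limma adjusted p = 0.000183).

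Targets of the other arms of the unfolded protein response, those driven by ATF6 and XBP1, went mainly the other way. Of 29 measured, 2 were called higher (6.90%), 16 lower (55.2%) and 11 neither, with a median log2 fold change of -0.23. The shares in all genes were 19.7% and 14.8%. With a variance estimated for each group the count of lower genes was 8. Of 10 measured housekeeping genes read for reference, 1 was called higher (10%) and 4 lower (40%), with a median log2 fold change of -0.09. PDIA4, a disulfide isomerase of the endoplasmic reticulum, read 7458, 7639 and 7206 in the control arrays and 4627, 4444 and 4248 with EC-70124, a log2 fold change of -0.74 (SE 0.06, limma adjusted p = 4.5e-05). SEC24D, a component of transport vesicle coats, fell by 0.81 on the log2 scale (limma adjusted p = 0.000199). FKBP14, a collagen-folding isomerase, fell by 0.66 (limma adjusted p = 0.000148). EDEM1, of glycoprotein degradation, fell by 0.52 (limma adjusted p = 0.000391), and HYOU1, a chaperone, by 0.42 (limma adjusted p = 0.00636).

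HSPA5, the chaperone BiP that marks this arm, read 10104, 10563 and 10256 in the control arrays and 10275, 10030 and 10804 with EC-70124. The groups overlapped throughout, with a log2 fold change of 0.01 (limma adjusted p = 0.932). The genes called higher were HERPUD1, of endoplasmic reticulum-associated degradation, at 0.28 (limma adjusted p = 0.00656), and UFM1, a ubiquitin-like modifier, at 0.19 (limma adjusted p = 0.0301). The UFM1 call was lost under each rescaling tried and on leaving out any array but treated replicate 3.

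**Figure D5:**
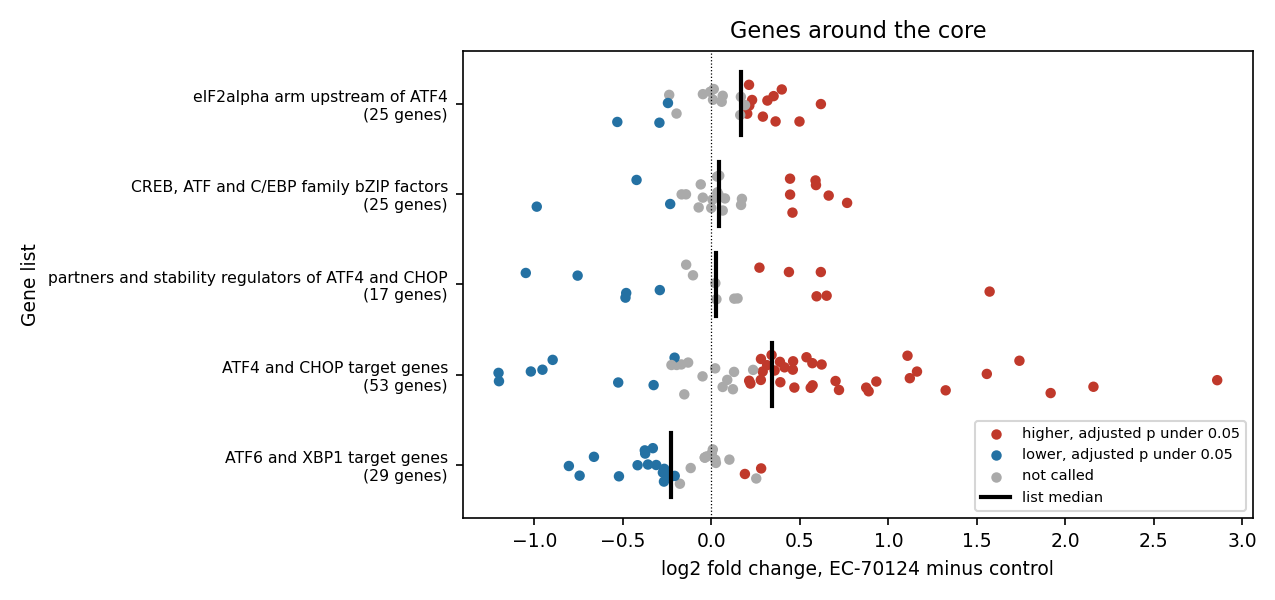
Log2 fold change (EC-70124 minus control) of each measured gene in the 5 pathway lists; each point is 1 gene, coloured by its call at a limma adjusted p of 0.05, and bars are list medians. The ATF4 and CHOP targets lie mostly above 0 (33 of 53 called higher) and the ATF6 and XBP1 targets mostly below it (16 of 29 called lower).

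A few genes ran closest to DDIT3 and CHAC1 over the 6 arrays, by the root mean square difference of log2 values minus the control mean. For DDIT3 these were DYNAP (0.0865), the homeobox gene MKX (0.106), FAM218A (0.139), and ZNF583 and TNFAIP3 (0.173 each), the last encoding the NF-kappaB feedback inhibitor A20. For CHAC1 they were STC2 (0.188), the matrix metalloprotease MMP19 (0.201), AKNAD1 (0.218), the clock gene PER2 (0.241) and SCG2 (0.360). The measure includes the size of the fold change, so a close gene need not share the pattern between replicates. FAM218A and TNFAIP3 were lower in treated replicate 3 (1.96 and 1.90) than in treated replicate 1 (2.34 and 2.41).

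Of 20 measured lineage and off-lineage markers, 5 were called higher (25%) and 3 lower (15%), beside 19.7% and 14.8% of all genes. EPCAM, ERBB2, ESR1 and PGR had log2 fold changes of 0.13, 0.03, -0.12 and -0.07. None of them was called (limma adjusted p = 0.218, 0.754, 0.359 and 0.506). The mesenchymal gene VIM had a log2 fold change of -0.07 (limma adjusted p = 0.328), while AXL, CD44 and ZEB1 fell by 0.27, 0.29 and 0.17 on the log2 scale (limma adjusted p = 0.00508, 0.0049 and 0.044). SNAI2, a factor of mesenchymal transition, rose by 0.78 (limma adjusted p = 0.00166). The epithelial keratins KRT18 and KRT8 rose by 0.77 and 0.20 (limma adjusted p = 3.8e-05 and 0.0405), the luminal factor GATA3 by 0.46 (limma adjusted p = 0.000446) and CDH1, or E-cadherin, by 0.19 (limma adjusted p = 0.049). Their part in the results above was not tested, and intensities of different probe sets do not rank these markers against each other. None of 7 leukocyte and endothelial markers was called by limma, none had an unadjusted p under 0.05, and their summed intensity ran from 1730 to 1777 in control arrays and from 1645 to 1756 in treated arrays. Correlations of log2 values across genes were 0.990 to 0.993 between arrays of a group and 0.979 to 0.984 between groups. Treated replicate 3 differed from the other arrays in its effect on the calls. Leaving it out raised them from 3632 to 3889 higher and from 2722 to 2947 lower. Leaving out any other array lowered both counts. Array medians were 437 to 444 in control and 451 to 460.1 in treated arrays. The number of arrays limits the precision, since 3 against 3 gave a median SE of 0.07 on the log2 scale.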

How the data were processed

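RNA of 3 control and 3 EC-70124 samples was hybridised to Affymetrix gene arrays. The deposited intensity values are model-based expression indices that the authors computed in dChip after rank-invariant normalization. For dChip, the version and the background method were not given in the sources used here. From them, log2 was taken after a floor of 1. Of 33252 probe sets, 19460 carried 1 symbol in the platform annotation, 1754 several and 12038 none, which left 18417 genes. limma 3.58.1 in R 4.3.3 (lmFit, eBayes) compared the groups without a block, adjusting by Benjamini-Hochberg over all genes, and was tested on simulated data. The 9 genes and all lists were chosen with earlier results of these data known. From each list, up to 5 called genes per direction with the largest change were named, with the eIF2alpha kinases, PPP1R15B, CEBPA, CEBPD, CEBPE and the tribbles genes whatever their values, and the 5 genes closest in profile to DDIT3 and to CHAC1; HSPA5, ALDH18A1, PYCR1, SLC38A2, SPOP, EGLN1, GCN1, DNAJC3 and the markers were named after their values were seen. Replicate numbers were not treated as pairs, since the sample labels give only a number. Alternatives covered normalization, offset, filter, variance model, probe-set choice and each array left out. Promoters came from RefSeq (GRCh38.p14).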

Additional observations from a re-analysis of the deposited data

How the results depend on the processing

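The 9 genes kept their direction under every alternative set out at the start. With the median over probe sets, 8 of the 9 genes were higher without overlap. All 9 were higher without overlap whichever array was left out, but this had to follow from their separation on all 6 arrays. Their log2 fold changes moved by more than the replicate spread only for ATF3 (1.98) and NUPR1 (2.59) with an offset of 50 and for ATF4 (0.09) with the median over probe sets. On its other probe set, an alternative chosen after seeing the data, ATF4 reversed to -0.27. Leaving out arrays, the whole-table calls ran from 2992 to 3889 higher and 2133 to 2947 lower, the ATF4 and CHOP targets from 30 to 31 higher, the eIF2alpha arm from 3 to 5 lower (5 without EC-70124 replicate 3), and the ATF6 and XBP1 targets from 1 to 3 higher and 12 to 17 lower. The eIF2alpha arm had 5 genes lower under quantile normalization, cyclic loess, median centring, a filter on the lowest genes, the offset, and the trended robust variance. The bZIP family had 5 lower under quantile normalization and median centring. The ATF6 and XBP1 targets had 1 higher under these scalings, cyclic loess and the median over probe sets. With unequal variances the whole table had 1963 higher and 1280 lower. The ATF4 and CHOP targets then had 23 higher and 6 lower. The eIF2alpha arm had 6 higher, the bZIP family 4 higher and the partners 3 lower. The ATF6 and XBP1 targets had 0 higher (2 by the limma test above) and 8 lower. Small changes that were not called crossed 0: CEBPA was -0.00691 after quantile normalization, EIF2AK2 was -0.0358 after quantile normalization, -0.0230 after cyclic loess and -0.0306 after median centring, and with arrays left out CEBPE ran from -0.0902 to 0.0606 and CEBPD from -0.13 to 0.0423. The cause was not tested for any of these. Of 47 named list genes, 29 kept their call under every alternative. Same-numbered samples had correlations of 0.13, -0.02 and 0.14 of their deviations, and differently numbered samples ran from -0.22 to 0.15. With 3 arrays in a group these values cannot settle whether the samples were paired. With the number as a replicate block the calls were 3522 higher and 2662 lower, and in the lists 10 and 3 for the eIF2alpha arm, 7 and 3 for the bZIP family, 6 and 5 for the partners, 33 and 9 for the ATF4 and CHOP targets and 2 and 16 for the ATF6 and XBP1 targets.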
